A study of Mus musculus with 24 samples.

Results

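Sham-operated hearts of the series had been cut at the site on the left anterior descending coronary artery where a tie would have been placed, and the tissue below that site was compared here with the tissue above it. The 12 arrays from sham hearts were taken, by the piece and surgery named in their titles, from the 24 arrays of the series. They comprised 6 arrays of below tissue (3 MuRF1 Tg+ and 3 wild type, WT) and 6 arrays of above tissue (3 MuRF1 Tg+ and 3 WT). All mice were 12 to 16 weeks old, were described as strain-matched, and had the sham operation, so no array came from ischemic tissue. MuRF1 is the protein of Trim63, a ubiquitin ligase of the sarcomere, and the sources used here do not give the promoter that drives the Tg+ transgene. By the series design both pieces were taken from each of 3 hearts per genotype, but the labels do not say that the same replicate number marks the same heart. Heart RNA carried Cy5, and RNA pooled from whole C57BL/6 pups of postnatal day 1 carried Cy3 on every array. Each value below is the log2 ratio of the heart signal over the pup signal for 1 probe of a gene, and each difference is below minus above on that scale. The number of arrays limits the precision.

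The ventricles of the mouse heart taper to the apex, and the atria, the great vessels, the valves and their fat lie at the base. Tissue above a tie on the artery therefore borders on structures that tissue below it does not reach. Ventricular and atrial muscle cells of the adult mouse differ in their contractile proteins: atrial cells make the myosin light chains Myl7 and Myl4 and the calcium pump inhibitor sarcolipin (Sln), while ventricular cells make Myl2 and Myl3. A small amount of atrium in a ventricular piece can be seen in these transcripts, because the ventricle itself makes little of them.

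The heart markers were high on all 12 arrays. Tnni3, cardiac troponin I, had a log2 ratio of 5.11 to 6.80, Myh6, the alpha myosin heavy chain, 3.30 to 4.57, and Fhl2, a LIM protein of heart muscle, 5.09 to 5.88. Trim63, measured with its brightest probe, lay between 2.22 and 2.47 on the 6 Tg+ arrays and between 2.24 and 2.55 on the 6 WT arrays, so this probe did not separate the genotypes. Its below minus above difference was -0.03 ± 0.07 (standard error). Of the Cy5 spots, 34.6% to 43.3% were well above background on the below arrays (mean 36.6% ± 3.35, SD, n = 6) and 36.1% to 40.7% on the above arrays (mean 39.1% ± 2.02, SD, n = 6). With both genotypes in 1 test, the pieces did not differ in this share beyond their spread (exact permutation test within genotype, two-sided p = 0.21). The Tg+ pieces did not overlap, at 34.6%, 34.9% and 35.2% below against 39.4%, 40.5% and 40.7% above. The Tg+ below arrays lay on slides 2 and 4 and the Tg+ above arrays on slides 3 and 5. Piece and slide therefore cannot be told apart for this share in Tg+. The WT pieces overlapped, at 34.9%, 36.8% and 43.3% below against 36.1%, 37.0% and 40.7% above. The 12 arrays correlated with each other at 0.956 to 0.991.

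No gene passed the test for a difference between below and above tissue. Of 11350 features tested with limma, 0 (0%) had a Benjamini-Hochberg adjusted p under 0.05 in either direction, and the smallest adjusted p was 0.938. At an unadjusted p under 0.05 there were 390 features (3.44%), 210 higher below (1.85%) and 180 lower below (1.59%). The 6 below and the 6 above arrays did not overlap for 12 features (0.106%). The median difference over all features was 0.0048, with quartiles of -0.038 and 0.049.

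The intervals were narrow for most genes with the normalization used here. The median standard error of a difference was 0.057, and the median SD between the 3 arrays of a group was 0.086. For 10006 features (88.2%) the 95% interval of the difference lay inside a 1.2-fold change in either direction, and for 11308 (99.6%) it lay inside a 1.5-fold change. With this normalization a difference of more than 1.5-fold was estimated for 3 features, all lower below, and these were Myl7, Myl4 and Sln. The set depended on the normalization. With Agilent's own log ratio Dynlt1 (-1.13, adjusted p = 0.19, limma), Kcne1 (-0.69) and Chmp6 (-0.61) also differed by more than 1.5-fold. The number of such features with that ratio is not given.

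**Figure D1:**
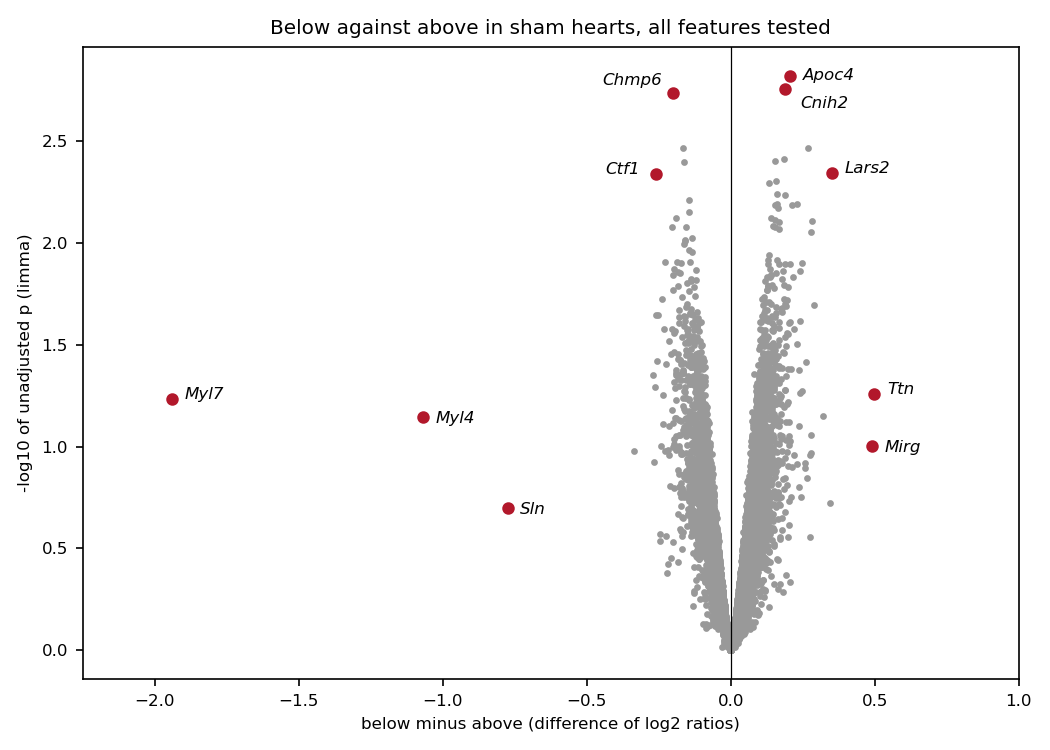
Difference between below and above tissue (x axis, below minus above, log2 ratios) against the unadjusted p of the limma fit (y axis, -log10) for the 11350 features of the 12 sham arrays. Each point is 1 feature; Myl7 at -1.94, Myl4 at -1.07 and Sln at -0.77 lie far to the left without the smallest p-values, which belong to small differences such as Apoc4 (0.21) and Chmp6 (-0.20).

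The features with the smallest unadjusted p had small differences, and none passed after adjustment. Apoc4, an apolipoprotein, had log2 ratios of -1.75, -1.71 and -1.51 on the Tg+ below arrays and -1.74, -1.65 and -1.72 on the WT below arrays, against -1.84, -1.88 and -1.97 on the Tg+ above arrays and -1.91, -1.95 and -1.77 on the WT above arrays. All 6 below arrays were higher than all 6 above arrays, yet by only 0.21 ± 0.05 (standard error), a 1.15-fold difference with an adjusted p of 0.938. Cnih2, a cornichon protein that binds glutamate receptors, did not overlap either, at -1.26 to -1.04 below and -1.45 to -1.30 above, a difference of 0.19 ± 0.05 that was 0.47 with Agilent's own log ratio. Lars2, the mitochondrial leucyl-tRNA synthetase, had the largest difference in this set, 0.35 ± 0.11, with -0.59 to -0.05 below and -1.02 to -0.27 above, and its groups overlapped. The sign of the Lars2 difference depended on the normalization, as it was -0.07 with Agilent's own log ratio and 0.09 with Cy5 alone. The remaining 5 genes of the set with a positive difference were Cyp2c40, Sfxn2, Decr2, Cyp2u1 and Kdm5b, with differences of 0.13 to 0.27.

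With a negative difference, the 8 genes of smallest p were Chmp6, BC034090, Tsnax, Ctf1, Gsg1l, Tmem17, Nptn and Senp8, at -0.26 to -0.14. Chmp6, a subunit of the ESCRT-III membrane complex, had a mean of 0.12 ± 0.089 below and 0.32 ± 0.085 above (SD, n = 6 each), a difference of -0.20 ± 0.05 that was -0.61 with Agilent's own log ratio. Ctf1, the cytokine cardiotrophin-1, had a mean of 0.32 ± 0.066 below and 0.58 ± 0.22 above (SD, n = 6 each). Its values above spread from 0.30 to 0.85, and the 3 highest were on Tg+ above 1, Tg+ above 3 and WT above 3. Tests of these genes gave the same adjusted p, 0.938, as that of Apoc4.

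The largest difference of all features was that of Myl7, the regulatory myosin light chain of the atrium. Myl7 had log2 ratios of -1.94, -1.94 and -1.94 on the Tg+ below arrays, -1.97, -1.85 and -2.27 on the WT below arrays, -1.66, 4.28 and -2.35 on the Tg+ above arrays, and -2.09, -1.13 and 2.67 on the WT above arrays. Of the 6 above arrays, Tg+ above 2 and WT above 3 stood far from the rest, WT above 2 stood slightly above the below arrays, and the other 3 lay in or near the range of the below arrays. Against the median of the below arrays, Myl7 was 74.7-fold on Tg+ above 2, 24.5-fold on WT above 3 and 1.76-fold on WT above 2. Below tissue had a mean of -1.99 ± 0.15 and above tissue -0.05 ± 2.81 (SD, n = 6 each), so the spread above was many times that below. For Tg+ above 2 and WT above 3, more atrial cells and more Myl7 RNA per cell cannot be told apart in bulk tissue.

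Myl4, the essential myosin light chain of the atrium, was read by a pair of probes that overlap in the coding sequence. The probes are shown because they read the same stretch of 47 bases (in capitals) and so are not independent measurements. The gene lies on chromosome 11.
Myl4 probe 1: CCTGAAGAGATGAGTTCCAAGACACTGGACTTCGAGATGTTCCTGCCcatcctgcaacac
Myl4 probe 2: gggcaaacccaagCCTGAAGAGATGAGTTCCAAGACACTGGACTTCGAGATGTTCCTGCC
Probe 2, the brighter, had log2 ratios of -2.83, -2.90 and -2.64 on the Tg+ below arrays, -2.91, -2.50 and -3.02 on the WT below arrays, -2.71, 1.01 and -2.83 on the Tg+ above arrays and -2.93, -2.46 and -0.47 on the WT above arrays. Probe 1 gave 1.04 on Tg+ above 2, -0.49 on WT above 3, and -2.87 to -2.31 on the other 10 arrays. Both probes were high on the 2 arrays that were high for Myl7. Against the below median, Myl4 was 14.7-fold on Tg+ above 2 and 5.25-fold on WT above 3.

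Sln, which slows the calcium pump of the sarcoplasmic reticulum and is an atrial transcript in the adult mouse, had log2 ratios of -4.68, -4.66 and -4.41 on the Tg+ below arrays, -4.45, -3.67 and -4.67 on the WT below arrays, -4.68, -0.94 and -4.71 on the Tg+ above arrays and -4.73, -4.67 and -2.17 on the WT above arrays. The same 2 above arrays were the highest, at 12.3-fold (Tg+ above 2) and 5.24-fold (WT above 3) over the below median. WT below 2 came next at 1.85-fold. On that array the features with a 12-array median under -3, to which Sln belongs, deviated by a median of 0.42.

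**Figure D2:**
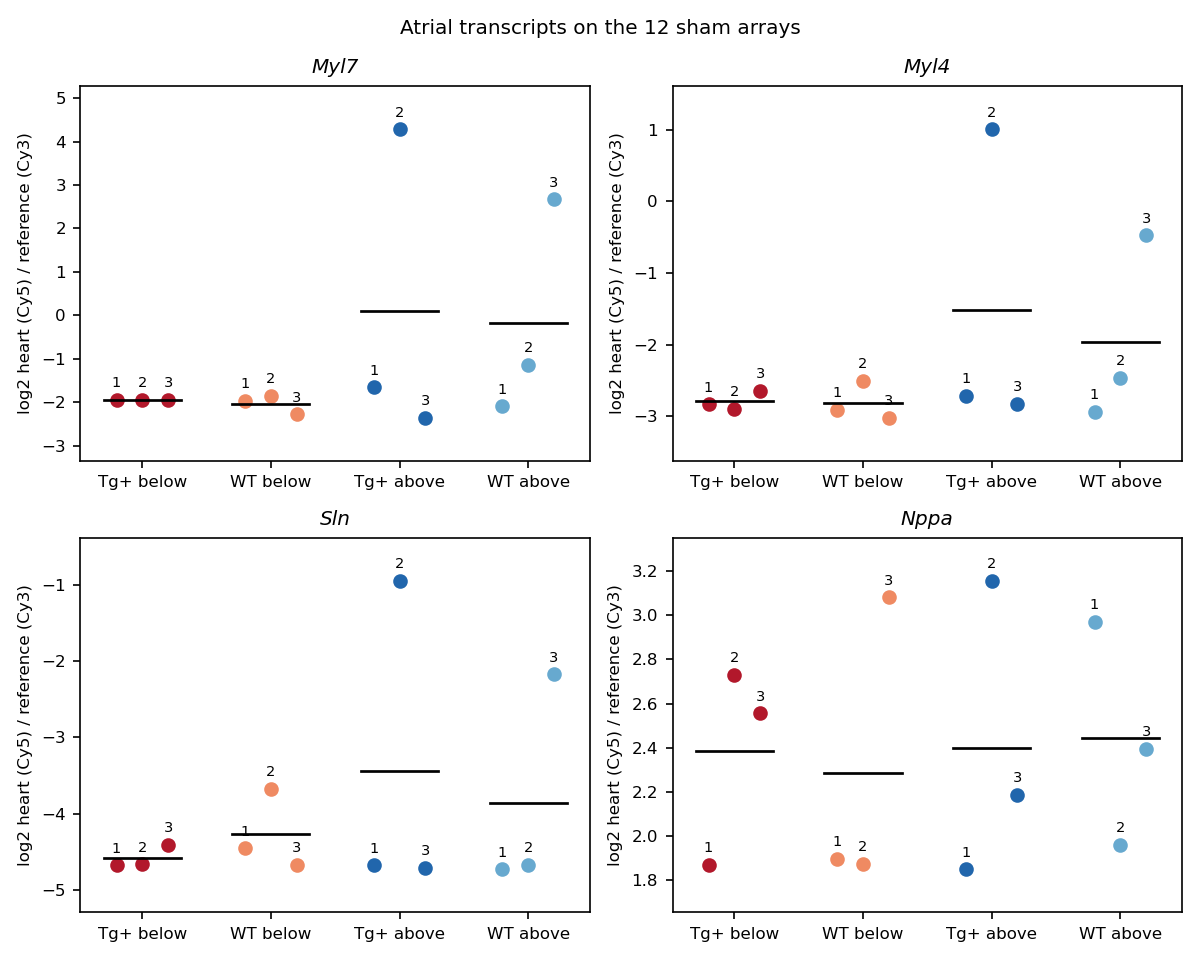
Log2 heart over reference ratio (y axis) of Myl7, Myl4, Sln and Nppa on each sham array, by group (x axis, 3 arrays each; the number beside a point is the replicate number and the bar is the group mean). Tg+ above 2 and WT above 3 are the highest arrays for Myl7, Myl4 and Sln, while Nppa is 3.08 on WT below 3, 3.16 on Tg+ above 2 and 2.97 on WT above 1.

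None of these 3 genes passed the test of below against above tissue. The difference was -1.94 ± 0.95 for Myl7 (95% interval -3.96 to 0.08), -1.07 ± 0.55 for Myl4 (-2.24 to 0.11) and -0.77 ± 0.58 for Sln (-2.01 to 0.46). Their adjusted p in the limma fit over all features was 0.938 each. With the pieces exchanged within genotype, the exact permutation test over 400 arrangements gave two-sided p = 0.12 for Myl7, 0.145 for Myl4 and 0.495 for Sln (0.217, 0.217 and 0.495 adjusted over the 3). Taking below minus above between arrays of the same number, Myl7 was lower below in 4 of 6 (mean -1.94 ± 2.88, SD, n = 6), and the exact sign-flip permutation test gave two-sided p = 0.1875 where 0.03125 is the smallest it can give. Whether the same number marks the same heart is not stated. The sham arrays lay on 6 slides, each scanned in 1 session, and 4 slides held both pieces. Within these 4 slides the Myl7 difference was 0.12, -0.81, -3.16 and -4.62, the first from WT arrays alone and the others with genotypes mixed, and with slide as a block it was -2.14. Slides that held neither Tg+ above 2 nor WT above 3 gave the smaller differences. Without Tg+ above 2 the Myl7 difference was -0.999, without WT above 3 it was -1.32, and without both it was -0.18, with -1.99 ± 0.15 below (SD, n = 6) and -1.81 ± 0.54 above (SD, n = 4). Without both arrays Myl4 differed by -0.07 and Sln by 0.27.

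The 3 atrial genes were the 3 features furthest above their own 12-array medians on both Tg+ above 2 and WT above 3. That no feature of like ratio reached them was therefore fixed in advance, and the values that follow are description only. Among 411 features whose 12-array median lay within 0.5 of that of Myl7, the deviation from the own median on Tg+ above 2 was at most 1.27, against 6.22 for Myl7 itself, and on WT above 3 it was at most 0.41, against 4.61 for Myl7. Of 133 features near Myl4, none reached its deviations of 3.78 on Tg+ above 2 and 2.29 on WT above 3. The 18 features near Sln lay at a median of -0.14 on Tg+ above 2, where Sln deviated by 3.72, and at a median of 0.55 on WT above 3, where Sln deviated by 2.50. As a background outside the sham groups, Myl7 ranged from -2.20 to 6.23 (median -0.08) on the 12 ischemia-reperfusion arrays of the series.

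Other genes of the atrial list were also highest on Tg+ above 2. Of 22 listed atrial genes, all on the array, 14 were tested, 0 passed, and 12 of the 14 had a negative difference (median -0.14, against 0.0048 over all features). Tg+ above 2 was the highest of the 12 arrays for 9 of the 14, and WT above 3 for 1. The shares of all features that were highest on each array, or that had a positive difference, are not given. Counts of both kinds, here and below, are therefore description only. Tbx5, a transcription factor of the atria and the left ventricle, was 1.51 on Tg+ above 2 and at most 1.22 elsewhere. Gja5, the connexin of atrial muscle, conduction fibres and arteries, was 0.40 on Tg+ above 2 and at most 0.12 elsewhere. Stard10, a lipid transfer protein, was -0.35 on Tg+ above 2, -0.62 on WT above 3 and at most -0.91 on the other 10 arrays. Bmp10, Nr2f1, Kcnj5, Dhrs9 and Upk3b, also on the atrial list, were not well above background on any sham array.

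Nppa, the gene of atrial natriuretic peptide, is made by the atria and by stressed ventricle, and did not divide by piece. Its coding-region probe is shown because the brighter Nppa probe had the same 3 arrays highest. The gene lies on chromosome 4.
Nppa probe: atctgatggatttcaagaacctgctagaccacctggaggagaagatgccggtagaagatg
This probe read 2.80 on WT below 3, 3.07 on Tg+ above 2 and 2.47 on WT above 1, its 3 highest values, and 1.38 at the lowest. With the brighter probe Nppa was 1.87, 2.73 and 2.56 on the Tg+ below arrays, 1.90, 1.88 and 3.08 on the WT below arrays, 1.85, 3.16 and 2.19 on the Tg+ above arrays and 2.97, 1.96 and 2.40 on the WT above arrays. Below and above tissue overlapped over almost the whole range, with a difference of -0.08 ± 0.26 (adjusted p = 0.973, limma).

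Some genes of smooth muscle, valve, connective tissue and conduction system were also highest on Tg+ above 2, and their part in the Myl7 difference was not tested. Cnn1, calponin of smooth muscle, was -0.98 on Tg+ above 2 and -2.80 to -2.25 on the other 11 arrays. Myl9, the smooth muscle regulatory light chain, was -1.35 against -3.18 to -2.45 on the others, and Tagln, transgelin, was -0.75 against -2.45 to -1.74. Cpne5, listed among conduction genes, was 0.19 against -1.40 to -0.74, and the valve-list genes Cytl1 (0.87 against 0.13 to 0.44) and Wif1 (0.22 against -1.04 to -0.23) were highest there too.

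No member of these lists passed the test between the pieces. Of 20 smooth muscle and great vessel genes tested, 0 passed, 9 had a positive and 11 a negative difference (median -0.02), and Tg+ above 2 was the highest array for 8 of them. The median deviation of this list was 0.02 on Tg+ above 2 and -0.08 to 0.05 on the others. The smooth muscle list as a whole was therefore not raised on Tg+ above 2. Of 22 cardiac fibroblast genes tested, 0 passed (median -0.0052), and Tg+ above 2 was the highest array for 10. Of 11 valve and cartilage-like genes tested, 0 passed (median 0.03), and Tg+ above 2 was the highest array for 4, while the list median stood at 0.08 on both Tg+ below 3 and Tg+ above 2. Of 5 conduction genes tested, 0 passed (median -0.05), and Tg+ above 2 was the highest for 4, with Smoc2 as the exception. Hcn4, the pacemaker channel, was well above background on 1 above array and 0 below arrays, and Shox2 and Isl1 of the sinus node on none. WT above 3, the other array with high Myl7, was the highest array for 0 of the 22 fibroblast genes. These counts too lack the share of all features that were highest on each array.

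Of 13 white adipocyte genes tested, 0 passed and 10 had a positive difference (median 0.04). Adipoq, the adipocyte hormone adiponectin, ranged from -3.62 to -3.05 below and from -3.40 to -3.20 above, and the 2 pieces overlapped throughout. Cfd, adipsin, stood at -3.07 on WT below 2, -2.98 on Tg+ above 2 and -3.25 on WT above 3, against -4.23 to -3.76 on the other 9 arrays, so its high arrays came from both pieces. Pck1, phosphoenolpyruvate carboxykinase of fat and liver, had the smallest p of the list, with a difference of 0.23 ± 0.07 (unadjusted p = 0.00645, limma). Plin1 and Retn were well above background on 1 below array and 3 above arrays each, and Lep on none. Of the brown adipocyte genes, Ucp1, the uncoupling protein that defines brown fat, lay at -4.96 to -4.05 on all arrays, highest on WT above 3 and WT below 2. Cfd and Ucp1 belong to the features with a 12-array median under -3. Those features as a set deviated by a median of 0.42 on WT below 2, 0.29 on WT above 3 and -0.13 on Tg+ above 2.

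Markers of tissues around the heart were detected unevenly. Of 12 thymus genes, 3 were tested and 9 were not well above background on any array, among them Rag1, Dntt and Foxn1. Of 7 thyroid and parathyroid genes, 6 were not well above background on any array, and of 22 lymphocyte genes 13 were not. Of 15 lung and airway genes 3 were not well above background on any array, and of 13 squamous epithelium genes 4 were not. Among lung and airway genes Sftpc, the surfactant protein of the alveolus, was tested and lay at -3.68 to -3.05 below and -3.75 to -3.14 above. Scgb3a2, a secretoglobin of the airway, differed by 0.18 ± 0.08 (unadjusted p = 0.0344, limma). None of the 6 airway genes tested passed.

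**Figure D3:**
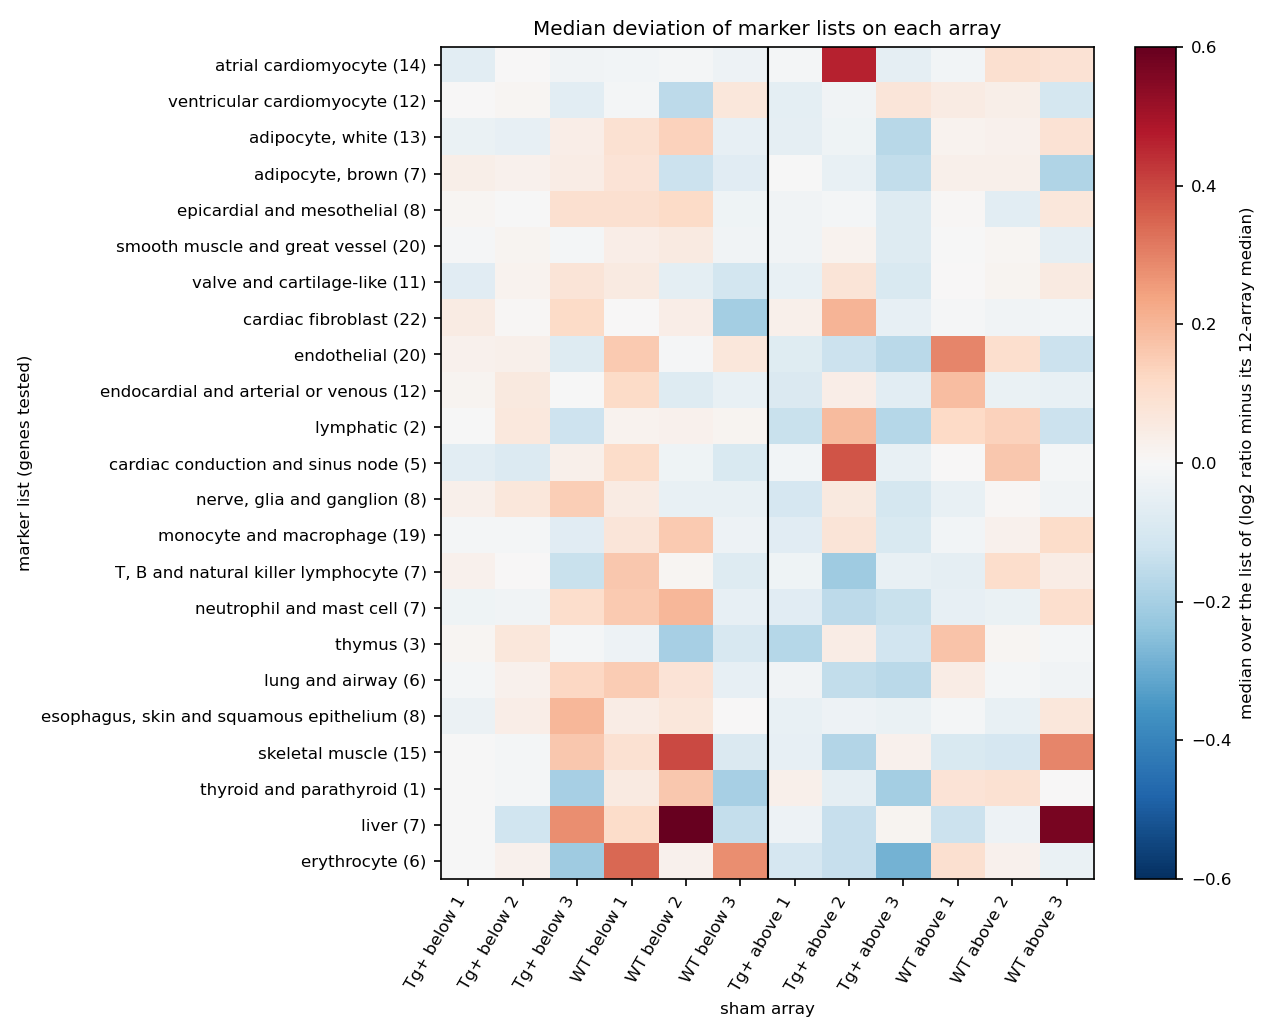
Median deviation of each marker list (rows, number of genes tested in brackets) on each sham array (columns, below left of the line, above right of it), as log2 ratio minus the gene's 12-array median. The atrial and conduction lists are highest on Tg+ above 2 (0.46 and 0.38), and the liver and skeletal muscle lists on WT below 2 (0.60 and 0.40) and WT above 3 (0.57 and 0.30).

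WT below 2 and WT above 3 differed from the rest in how far their most extreme ratios reached. Among 45 features with a 12-array median over 3, the median deviation was -0.20 on WT below 2 and -0.37 on WT above 3, and lay between -0.08 and 0.12 on the other 10 arrays. Among 91 features with a median under -3, it was 0.42 on WT below 2 and 0.29 on WT above 3, and -0.13 to 0.18 on the others. Tnni3 read 5.20 on WT below 2 and 5.11 on WT above 3, against 6.04 to 6.80 on the other 10 arrays. Afp, alpha-fetoprotein, a product of fetal and newborn liver, read -5.28 on WT below 2 and -5.86 on WT above 3, against -7.20 to -6.51 on the others. One of these arrays was from below and the other from above tissue, so the pattern did not follow the piece.

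**Figure D4:**
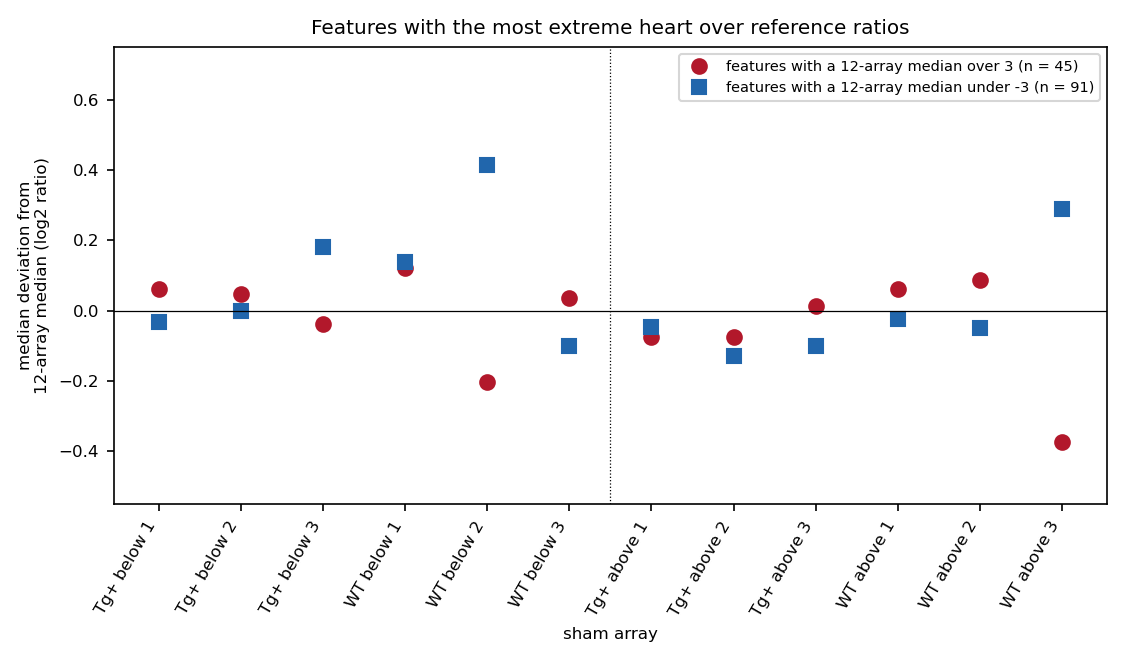
Median deviation from the 12-array median (y axis, log2 ratio) on each sham array (x axis, below left of the dotted line) for the 45 features with the highest and the 91 with the lowest heart over reference ratios. On WT below 2 and WT above 3 the high features lie lowest (-0.20 and -0.37) and the low features highest (0.42 and 0.29).

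The liver and skeletal muscle lists were high on the same pair of arrays. Of 7 liver genes tested, 6 had a median ratio under -3, and the median deviation of the list was 0.60 on WT below 2 and 0.57 on WT above 3, with -0.14 to 0.28 on the others. Of 15 skeletal muscle genes tested, 8 had a median ratio under -3, and the list stood at 0.40 on WT below 2 and 0.30 on WT above 3. Myl1, the essential light chain of fast skeletal muscle, read -3.93 on WT below 2 and -4.45 on WT above 3, against -5.73 to -4.72 on the others. The part of the narrower ratios in these lists was not tested. Between the pieces, 0 genes of either list passed, with medians of 0.10 for liver and 0.10 for skeletal muscle.

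All 6 red cell genes tested had a positive difference, and 0 passed. The share of all features with a positive difference is not given, so this count and the sign counts that follow are description only. The red cell list stood at 0.34 on WT below 1 and 0.28 on WT below 3, against -0.28 to 0.09 on the others. Hba-a1, alpha globin, was -2.28, -2.31 and -2.64 on the Tg+ below arrays and -1.72, -2.21 and -1.96 on the WT below arrays, against -2.42, -2.78 and -2.62 on the Tg+ above arrays and -2.21, -2.26 and -2.34 on the WT above arrays. The highest values were on WT below 1 and WT below 3, and the pieces overlapped. The difference was 0.25 ± 0.09 (unadjusted p = 0.0125, limma), but -0.0033 with Agilent's own log ratio. Alas2, the first enzyme of haem synthesis in red cells, differed by 0.20 ± 0.08. The list had the highest median of all 40 lists, 0.16. Of 20 endothelial genes tested, 0 passed, and 17 had a positive and 3 a negative difference (median 0.07). The list stood at 0.16 on WT below 1 and at 0.29 on WT above 1. WT above 1 was the highest array for 13 of 20, again without the share over all features. Kdr, a VEGF receptor, had its highest value of 1.82 there. All 7 mast cell and neutrophil genes tested had a positive difference, among them Cpa3, mast cell carboxypeptidase, with 0.28 ± 0.09, and 0 passed.

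No ventricular or sarcomere gene passed. Of 12 ventricular genes tested, 0 passed, and 7 had a positive and 5 a negative difference (median 0.03). Myl2, the ventricular regulatory light chain, lay at 4.35 to 5.35 below and 4.13 to 5.24 above (5 arrays above, since the spot on Tg+ above 2 was flagged as an outlier), with a difference of 0.06 ± 0.19. Of 31 sarcomere and Z-disc genes tested, 0 passed. Ttn, titin, had the largest positive difference of all features, 0.50 ± 0.24 (95% interval -0.01 to 1.01, unadjusted p = 0.0550, limma). Its brightest probe read 1.47, 1.81 and 1.92 on the Tg+ below arrays and 2.38, 1.63 and 2.10 on the WT below arrays, against 0.77, 1.69 and 1.203 on the Tg+ above arrays and 2.33, 1.78 and 0.55 on the WT above arrays. The lowest values were on WT above 3 and Tg+ above 1, where the 9 Ttn probes together spanned -0.50 to 1.04 and -0.31 to 1.01. Without WT above 3 the Ttn difference was 0.28.

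Pathway lists gave the same picture, with 0 members past the threshold in each of 17. Their sign counts too lack the share of all features with a positive difference. Of 37 oxidative phosphorylation genes tested, 31 had a positive difference (median 0.06), and Cox8b, a cytochrome oxidase subunit, had the smallest p, with 0.23 ± 0.10 over 11 arrays, since its spot on WT below 2 was flagged as an outlier. With Agilent's own log ratio Cox8b differed by 0.0051. Of 29 fatty acid oxidation genes, 16 had a positive difference (median 0.02). Of 21 ion channel and gap junction genes, 14 had a negative difference (median -0.05), led by Kcne1, a subunit of the slow potassium channel, with -0.23 ± 0.08 (unadjusted p = 0.0124, limma), or -0.69 with Agilent's own log ratio. Of 24 cardiac and patterning transcription factors, 14 had a negative difference, among them Tbx5 with -0.19 ± 0.08 and Hand2 with -0.14 ± 0.06. Of 48 collagen and matrix genes, 30 had a positive difference (median 0.04), and of 17 muscle ubiquitin ligases 9 had (median 0.0024).

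Of 11350 features, 0 (0%) passed the interaction of piece and genotype (smallest adjusted p = 0.993, limma), and 457 (4.03%) had an unadjusted p under 0.05. Within Tg+ hearts 0 of 11350 features (0%) passed below against above, with 863 at an unadjusted p under 0.05 and a smallest adjusted p of 0.510 (limma). Within WT hearts 0 of 11350 (0%) passed, with 105 at an unadjusted p under 0.05. The Tg+ below arrays lay on slides 2 and 4 and the Tg+ above arrays on slides 3 and 5. Within Tg+ hearts piece and slide therefore cannot be told apart. Without WT above 1 the WT count at that unadjusted p was 418, and without WT below 1 the interaction count was 946. The smallest interaction p was that of Tubb2b, a beta tubulin. Tubb2b read -1.91, -1.90 and -1.77 on the Tg+ below arrays against -2.40, -2.31 and -2.27 on the Tg+ above arrays, and -1.98, -2.40 and -2.15 on the WT below arrays against -2.02, -1.99 and -1.95 on the WT above arrays. The Tg+ pieces, which lay on different slides, did not overlap and the WT pieces did. The interaction was 0.66 ± 0.13 with an adjusted p of 0.993 (limma). Prss12 and Phf20l1 came next, with interactions of 0.53 ± 0.11 and -0.38 ± 0.08.

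Some genes lay at 2 distinct levels across the arrays. These features were picked after their values were seen, as those with a gap of at least 0.4 between neighbouring arrays, wider than 0.35 of their whole range, with 3 or more arrays on each side. Of 20 such features, 3 split by genotype and none by piece. Another 12 were low on the same 4 arrays, Tg+ below 2, WT below 3, Tg+ above 2 and WT above 1. Of these 12, 9 lie on chromosome 17 and Tmem37 on chromosome 1, while ENSMUST00000087244 and LOC630499 have no chromosome assigned. Chromosome 17 held 510 of the features searched, which were those of the 11350 tested with a value on all 12 arrays. Glo1, glyoxalase 1, read -0.52 to -0.42 on these 4 arrays and 0.29 to 0.55 on the other 8, and its dimmer probe read -0.55 to -0.33 and 0.03 to 0.27. Rsph3a, a radial spoke protein of cilia, read 0.17 to 0.35 and 1.17 to 1.34. Of 19 H2 genes of the mouse major histocompatibility complex tested, 6 were in the set and 13 were not, among them the class I genes H2-K1 and H2-M3. H2-T23, H2-Q7, H2-Q2, H2-Q5, H2-D1 and H2-Q10, all class I genes, were low on the same arrays, with H2-T23 at -0.09 to 0.10 against 0.68 to 1.22. Btbd9 split with 1 of its 3 probes only (-0.68 to -0.54 against 0.34 to 0.67), and many class I genes share sequence, so their probes may read one another's transcripts.

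**Figure D5:**
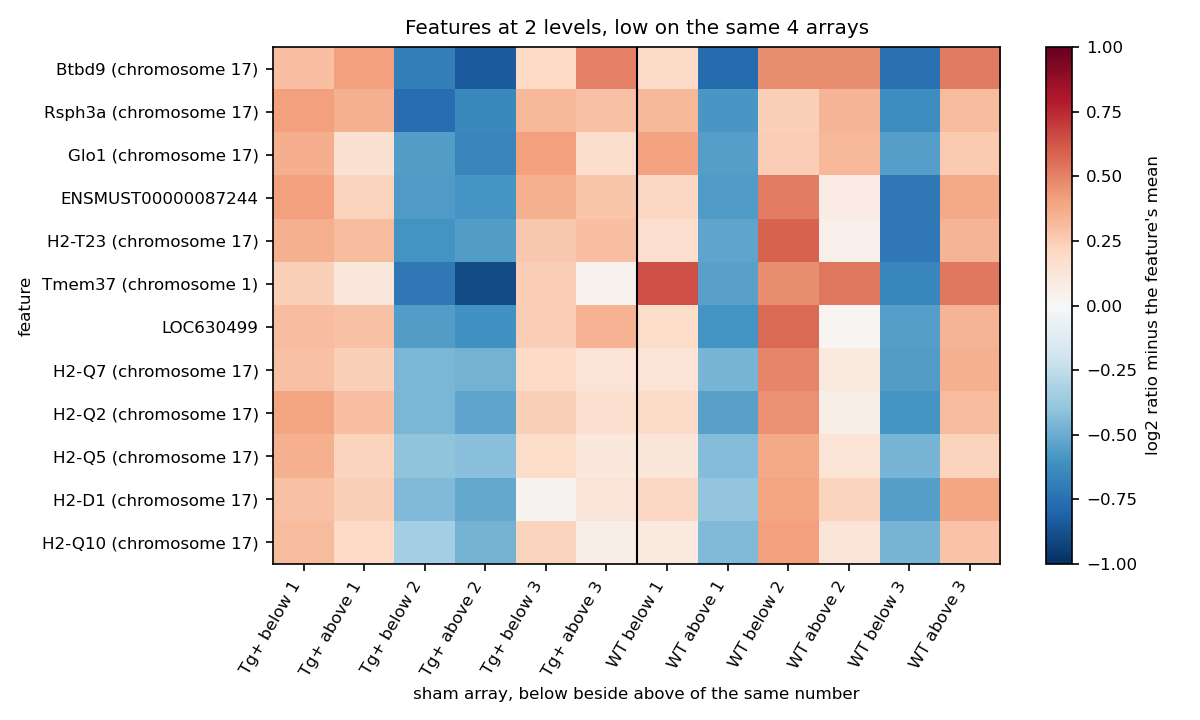
Log2 ratio minus the feature's own mean (colour) for the 12 features that were low on the same 4 sham arrays (rows) on each array (columns, with below left of above for each number). In Tg+ hearts the low arrays are below 2 and above 2; in WT hearts they are below 3 and above 1.

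In Tg+ hearts the low arrays of both pieces carried the same number, and in WT hearts they did not. AK008862, a transcript without a symbol, gave another split, with 3.00 to 3.61 on Tg+ below 2, Tg+ below 3, WT below 1, Tg+ above 2, Tg+ above 3 and WT above 2, and 0.52 to 1.03 on the other 6. Nr4a1, an immediate early nuclear receptor, read 0.07 to 0.27 on Tg+ below 2, WT below 1, Tg+ above 2 and WT above 2, and -1.55 to -0.75 on the other 8. In all 3 splits the Tg+ arrays of 1 number lay on the same side. No feature of the first set differed between below and above by more than 0.10. Sprr2b, a small proline-rich protein, separated the genotypes, at 1.13 to 1.48 on Tg+ and -0.35 to -0.18 on WT arrays, with a below minus above difference of 0.0043.

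Single arrays also stood apart for single genes. Mirg, a noncoding RNA of an imprinted cluster, read 0.12 on WT below 1 and -2.30 to -1.89 on the other 11 arrays. On the same array Sdc1, syndecan 1, read 0.15 against -1.26 to -0.97, and Cox5a, a cytochrome oxidase subunit, read 0.19 against 1.56 to 1.77. The Cox5a value comes from 1 probe, as its other probe was not above background on the sham arrays. Over all features, WT below 2 had 12 features more than 1 above their 12-array median and Tg+ above 2 had 10, against 0 to 5 on the other arrays.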

How the data were processed

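The authors hybridised 50 ng of amplified RNA per heart piece to 2-colour Agilent arrays. Per the labels the heart channel was Cy5, although a protocol text names Cy3-CTP, and dyes were not swapped. Per the file headers the deposited intensity values came from Feature Extraction 9.5.3.1, and the deposited log10 ratio is that software's own. The deposited value table holds log2 ratio values that follow it, with centring not stated. Members and lists were chosen with earlier results of these data known.

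Mean signals were background-corrected (normexp, offset 50), loess-normalized within arrays and averaged per probe in limma 3.58.1 (R 4.3.3), without control and outlier-flagged spots. Of 41174 probes, 15330 were well above background in Cy5 on all 3 arrays of at least 1 sham group. The brightest probe stood for each gene, and 2 features with under 2 values in a group were dropped, which left 11350. RefSeq symbols named 22951 probes by accession, 6659 by current and 3109 by older symbol. Others kept the array's name. Coordinates are not printed because the array's build is not named. The fit had genotype and piece as terms, Benjamini-Hochberg adjustment over all features, and 0.05 as threshold. Values after ± are standard errors unless given as SD. P-values measure the spread between these arrays, and both pieces of each heart entered without a heart term. Genes were named by rule: Myl7, Trim63, the 8 smallest p in each direction, the 3 smallest interaction p, the 4 smallest p of each list and the 12 widest within-group ranges. Genes chosen by other means, among them Tnni3, Gja5 and the 2-level features, were picked after their values were seen. Some genes of the lists are not reported here by name. The fit was tested on simulated data. Alternatives were no background correction, Agilent's ratio, the value table, Cy5 alone, other filters, probe means, array weights, slide, replicate number, all 24 arrays, and each array left out.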

Additional observations from a re-analysis of the deposited data

Results flagged for a closer look

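In each piece the 6 arrays of both genotypes were searched for 1 array far from its neighbours. Of 340 gene and piece sets, 25 (7.35%) had such an array. Genes named for their wide range within a group gave 7 of 24 sets, which their choice favours, and the other genes gave 18 of 316 (5.7%), where chance flags about 1 in 20. On Tg+ above 2 these were Cnn1 (-0.98), Myl9 (-1.35), Cpne5 (0.19) and Cytl1 (0.87). On WT above 3 they were Afp (-5.86), Apoa2 (-2.99), Fgb (-3.96), Apoc1 (-3.80), Ifit1 (0.48) and Mcpt4 (-1.08). On WT below 2 they were Afp (-5.28), Col1a1 (-4.72) and Sln (-3.67). WT below 1 stood apart for Mirg (0.12), Ndufa1 (2.89) and Pparg (-0.0579), and WT below 3 for Myl3 (4.27), Cacna2d2 (-0.89) and Myl7 (-2.27, the lowest of the below arrays). The remaining ones were Slc25a20 (0.50) and Wt1 (0.16) on WT above 1, Cd74 (1.34) and Uchl1 (-3.10) on WT above 2, Lgals3 (-1.91) on Tg+ above 3 and Rsad2 (-0.77) on Tg+ below 3. Where 2 arrays of a piece are high together, as for Myl7, Myl4 and Sln above, each masks the other in this search. Their gaps above were 0.24, 0.38 and 0.32 of the range, so Tg+ above 2 and WT above 3 were not flagged for them. Afp, Fgb, Apoa2, Apoc1, Col1a1 and Sln belong to the features with a 12-array median under -3. Those features as a set were raised on WT below 2 and WT above 3 (median deviations of 0.42 and 0.29).

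Of 80 sets of list medians, 12 had such an array. The largest gap was that of the liver list on WT above 3 (0.57), which was not alone in this, since WT below 2 in the other piece stood at 0.60. The atrial list stood apart on Tg+ above 2 (0.46) and the fibroblast list on Tg+ above 2 (0.21) and WT below 3 (-0.20). The sarcomere list stood apart on WT above 3 (-0.20) and on WT below 2 (-0.16). The interferon list stood apart on WT above 3 (0.27), while WT below 2 in the other piece stood at 0.31. The other lists were lymphatic on Tg+ below 3 (-0.13), immediate early on WT below 1 (0.13), squamous epithelium on WT above 3 (0.0684), circadian clock on Tg+ above 3 (0.10), and Wnt, Bmp, Notch and Hedgehog on WT below 2 (-0.0624).

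The highest Myl7 ratio of the 12 ischemia-reperfusion arrays, which enter only the alternative fit of all 24 arrays, was 6.23, above the highest sham value.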

How the results depend on the processing

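Below against above tissue gave 0 features past the threshold in the limma fit under each of the 27 alternatives run, with 58 (all 24 arrays in 1 fit) to 1172 (no filter on dim probes, 27668 features) at an unadjusted p under 0.05, and a lowest adjusted p of 0.0611, for Myh8 with slide as a block. With 1 array left out the unadjusted counts were 199 to 1138 for the piece effect, 523 to 1155 within Tg+, 80 to 418 within WT and 274 to 946 for the interaction. The count past the threshold was 0 within Tg+ and within WT hearts under each alternative that could be fitted. The interaction gave 0 except with slide as a block, where it gave 3 (Mirg, Cox5a and Sdc1, the genes that stood apart on WT below 1). Only slide 1 held both pieces of 1 genotype, so on the other slides piece and genotype cannot be told apart. Of 174 named genes, none passed the piece effect under any alternative, and 59 moved by more than the within-group SD with Agilent's log ratio, 59 with the value table and 20 with Cy5 alone, and at most 1 under any other alternative. The sign differed for 31, 33 and 21 of them in those 3. The Myl7 difference ran from -2.90 (Agilent's log ratio) to -0.18 (without WT above 3 and Tg+ above 2), and Sln turned to 0.27 there. Within numbers, Myl7 gave -2.90 (exact sign-flip permutation p = 0.125) with Agilent's log ratio and -2.34 (p = 0.09375) with Cy5 alone. Leaving out 2 arrays at once and quantile-scaling the ratios were chosen after seeing the data.

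The replicate number as a block gave 0 features for the piece effect (583 at an unadjusted p under 0.05, smallest adjusted p 0.315, Lars2) and 0 for the interaction, and as a random term 0 (546), with an estimated correlation of 0.135. Deviations of same-numbered below and above arrays correlated at 0.44, 0.40 and 0.14 in Tg+ and at 0.43, -0.28 and -0.14 in WT, so the numbers were not taken as pairs. Across numbers the highest correlation was that of WT below 2 with WT above 3, at 0.69, followed by WT below 1 with WT above 2 at 0.36 and WT below 3 with WT above 1 at 0.21. Each Tg+ array correlated best with its own number, and this did not hold in WT, a hint from the data and not the design. Dim probes are pulled toward 0 by the offset, so small differences of dim genes are understated.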

Other observations

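The other cell type lists showed array-to-array values that belong to no piece. Kcna1, a potassium channel on the nerve list, was raised by more than 0.5 over its own median on Tg+ below 3 and Tg+ above 2. Retnla, a macrophage product, was raised by more than 0.5 on WT below 1, WT below 2 and WT above 3. H2-Ab1, a class II histocompatibility gene, was raised by more than 0.5 on WT above 2 alone among the 12 arrays. Slc49a4, a transporter of the lysosome, read 1.66 to 1.95 on Tg+ below 1, Tg+ below 2, WT below 2 and WT above 3, and 0.45 to 1.09 on the other 8. Fbln2, fibulin 2, read -1.63 to -1.36 on Tg+ below 1, WT below 2, Tg+ above 1 and WT above 3, and -0.94 to -0.58 on the other 8.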
